A study of Mus musculus with 6 samples.

Results

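Genes of sterol and fatty acid synthesis were followed across 6 RNA-seq libraries of mouse cerebral cortex. The 30 members were named by symbol, from the first steps of the mevalonate pathway to the fatty acid desaturases, and all 30 had exactly 1 row among the 33274 gene rows of the count table. All 30 passed the filter on low counts, which left 18327 genes for testing. Each library came from the cortex of a 6-week-old female of the outbred ICR strain, wild type in genotype. In the saline lineage (3 libraries) the grandsire, an ICR male treated from 6 weeks of age, had received subcutaneous saline (10 mL/kg) over 21 days. In the methylphenidate lineage (3 libraries) the grandsire had received methylphenidate, a blocker of dopamine and noradrenaline reuptake, (15 mg/kg) by the same route and for as long. Treated males were mated with females that had no drug, and 1 son from each litter was mated with another such female, so the sampled grandoffspring were never dosed in either group. The labels do not say which of them shared a sire or litter, and the p-values reflect only how far these 6 samples spread. The design sets drug ancestry against saline ancestry in undosed animals.

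The brain makes nearly all of its own cholesterol, because lipoproteins do not cross the blood-brain barrier, and most of it ends up in myelin. Acetyl-CoA is condensed and reduced to mevalonate, mevalonate is turned into isoprenoids and then squalene, and squalene is closed into lanosterol and trimmed to cholesterol. SREBP2, the product of Srebf2, switches on these enzymes when sterols are low, and SREBP1, the product of Srebf1, acts more on fatty acid synthesis. SCAP escorts both from the endoplasmic reticulum to the Golgi for cleavage, and the INSIG proteins hold SCAP back when sterols are plentiful.

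Total counts ran from 23896752 to 28120640 per library, and the 30 members together took 0.329 to 0.394% of them. Mitochondrially encoded genes took 6.44 to 8.19%. The cortical label was met by the marker lists: none of the 8 excitatory neuron markers was at 0 in any library, and their summed level was 4957 to 5225 CPM (counts scaled to library size) in the saline lineage and 4857 to 5415 CPM in the methylphenidate lineage. Striatal projection neuron markers were present as well, at a sum of 392.5 to 525.4 CPM in the saline and 523.2 to 1126 CPM in the methylphenidate lineage, and none of the 10 was at 0 in any library. Striatal tissue lies just below the cortex, and its part in the results below was not tested.

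No member passed the threshold between lineages, but small differences leaned one way. Of the 30 members, 26 had a log2 fold change (methylphenidate minus saline) above 0, beside 50.3% of all genes tested, and their median was 0.13 beside 0.00 over all genes. None had an adjusted p under 0.05 by edgeR's quasi-likelihood test with Benjamini-Hochberg adjustment over all genes, where 0.0273% of all genes did and 0.0218% did so as higher, and the smallest adjusted p was 0.606 (Srebf1). At an unadjusted p under 0.05 there were 4 members, Srebf1, Srebf2, Insig1 and Dhcr7, all higher, where 4.2% of all genes were higher and 3.31% lower at that level. DESeq2 and limma-voom also called no member, with 2 and 4 members at an unadjusted p under 0.05. In 7 members the groups did not overlap, all with the methylphenidate lineage higher (Mvd, Fdps, Dhcr7, Srebf1, Srebf2, Insig1 and Acly), where this held for 6.97% of all genes, and for 6.51% with the methylphenidate lineage lower. Much of the lean rested on saline replicate 2: without it the median over members was 0.05, and 22 of 30 were above 0. Markers of some cell types leaned the same way: oligodendrocyte precursor markers had 8 of 8 log2 fold changes above 0 (median 0.29), astrocyte markers 9 of 10 (median 0.14) and striatal projection neuron markers 10 of 10 (median 1.07). Microglia markers had 6 of 8 above 0 (median 0.07). Excitatory neuron markers leaned the other way, with 2 of 8 above 0 (median -0.21). So did mature oligodendrocyte (3 of 10, median -0.05), endothelial (2 of 8, median -0.03), meningeal fibroblast (3 of 7, median -0.04) and choroid plexus markers (0 of 5, median -0.61). Inhibitory neuron and new oligodendrocyte markers were split evenly, with 4 of 8 and 3 of 6 above 0. None of these markers passed the threshold by edgeR, and their part in the lean was not tested.

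**Figure D1:**
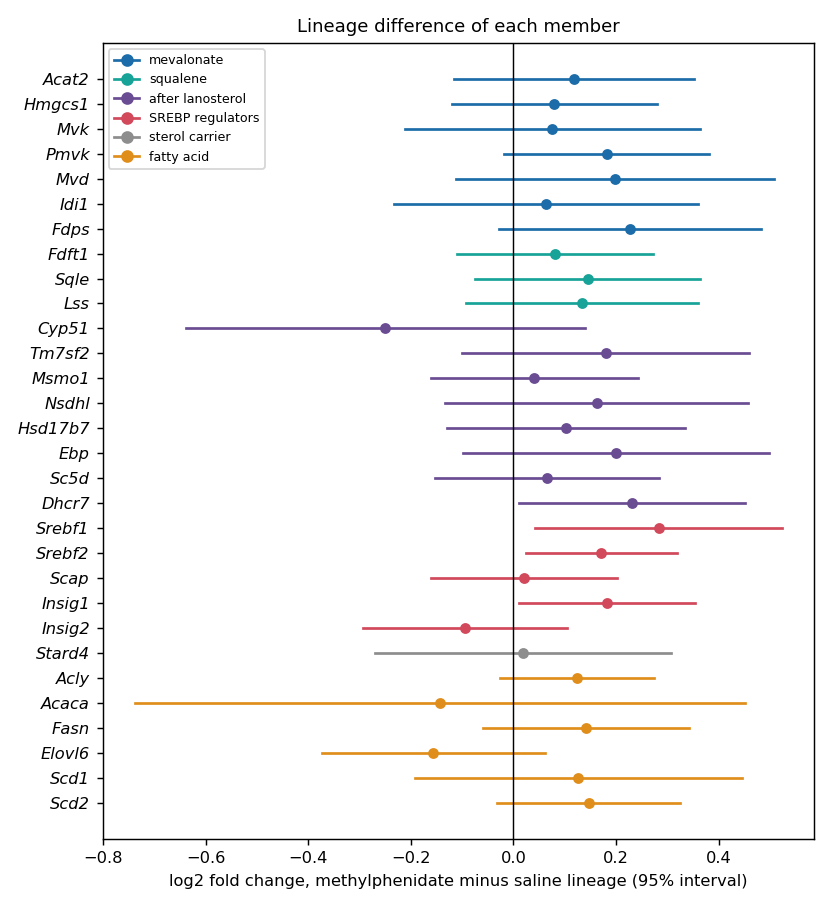
Log2 fold change of each member (points, methylphenidate minus saline lineage, n = 3 libraries per group) with its 95% interval from the edgeR fit (lines), coloured by role. Of the 30 points 26 lie right of 0, and only the intervals of Dhcr7, Srebf1, Srebf2 and Insig1 leave out 0.

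Levels of the members can be compared with each other only per transcript length. Scd2, the main stearoyl-CoA desaturase of brain, stood first at 270.7 CPM per kb of its longest coding transcript (mean of the 6 libraries). Hmgcs1, which makes HMG-CoA, followed at 78.9 CPM per kb, then Scd1 at 48.6 and Srebf2 at 43.9 CPM per kb. Hsd17b7, a 3-ketosterol reductase, was the lowest of the 30 at 4.76 CPM per kb, and the sterol carrier Stard4 was next at 6.06 CPM per kb. The spread between libraries of a group was small for most members. In the saline lineage the coefficient of variation ran from 2.68% for Idi1 to 27.5% for Cyp51, and in the methylphenidate lineage from 1.31% for Fdps to 40.3% for Acaca.

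Most enzymes of sterol synthesis went up and down together from animal to animal, and saline replicate 2 set much of that. Saline replicate 2 was the lowest of the 6 libraries for 16 of 18 sterol enzymes, all but Pmvk and Idi1, and for 21 of 30 members, whereas 17.3% of all genes tested had their lowest value there. Against the mean of the other 2 saline libraries, the 18 enzymes lay at a median of -0.28 on the log2 scale in saline replicate 2, or 0.824 times their level, and 17 of 18 were below. Over all genes tested this median was 0.01, and 48.8% of genes were below. The members outside the enzymes of sterol synthesis that were also lowest in saline replicate 2 were Srebf2, Insig1, Fasn, Scd1 and Scd2. At the other end, methylphenidate replicate 2 was the highest library for 9 of 18 enzymes, beside 15.2% of all genes. Methylphenidate replicate 2 had 28120640 counts in total and saline replicate 2 had 25434152, and the part of depth was not tested.

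**Figure D2:**
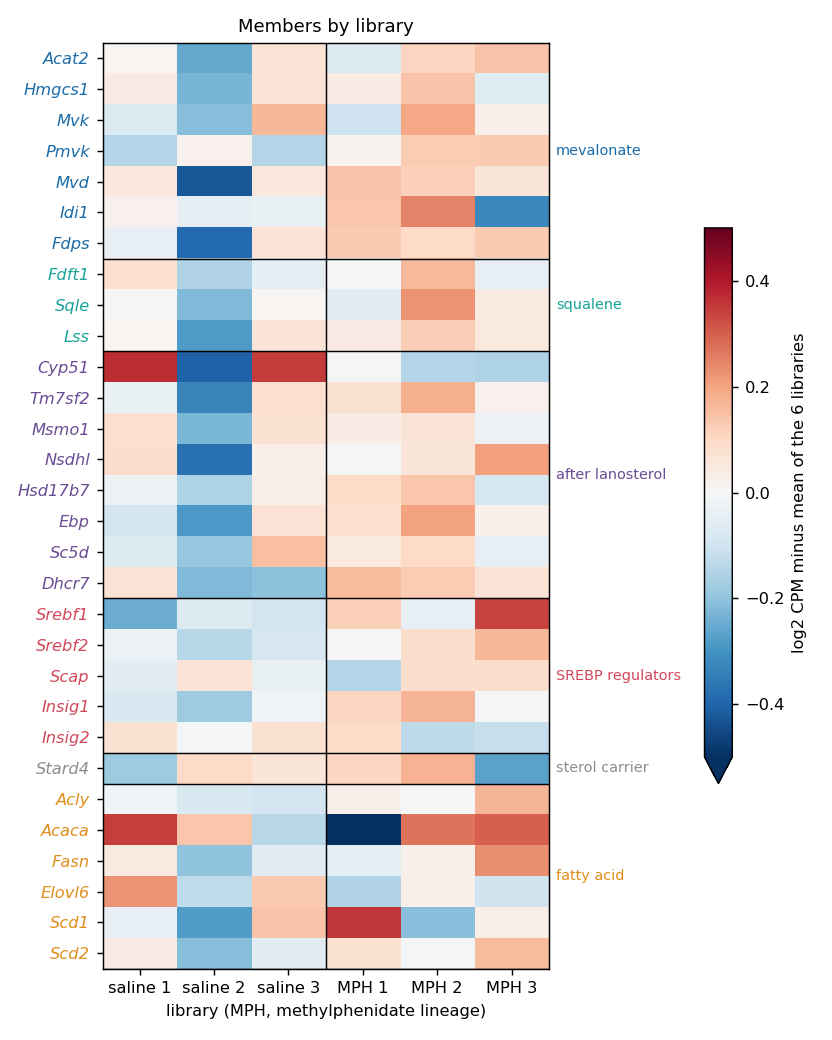
Log2 CPM of each member (rows, in pathway order) minus its mean over the 6 libraries (columns), in red above and in blue below the mean. The column of saline replicate 2 is blue in the mevalonate, squalene and after-lanosterol rows except for Pmvk, with Idi1 near 0, and the value of Acaca in methylphenidate replicate 1 (-0.92) lies beyond the colour scale.

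After group means were removed, the 153 pairs among the 18 enzymes had a median Pearson correlation of 0.68 across the 6 libraries, and 69.9% of the pairs were above 0.5. Over all pairs of genes tested the median was 0.00, and 19.8% were above 0.5. These are descriptions over 6 libraries that share their depth and tissue makeup, and without saline replicate 2 the median over the enzymes was 0.30, with 35.3% of pairs above 0.5 beside 25.1% of all pairs. Over the 435 pairs of all 30 members the median was 0.33 with the 6 libraries and 0.05 without saline replicate 2, where 27.8% of pairs were above 0.5, near the 25.1% of all pairs. The 10 pairs of SREBP regulators had a median of -0.13. Lss, the lanosterol synthase, lay closest to the mean of the other enzymes, with a correlation of 0.985 over the 6 libraries. Tm7sf2, a sterol C14 reductase, Msmo1, the sterol C4 methyl oxidase, and Hmgcs1 followed at 0.98, 0.98 and 0.97. Insig1, a regulator and itself a target of SREBP, had 0.835 and Elovl6, a fatty acid elongase, 0.92. The other regulators had 0.365 (Srebf2), 0.22 (Insig2), -0.33 (Scap) and -0.53 (Srebf1), and the other fatty acid members ran from -0.18 (Acly) to 0.52 (Scd2). Among the enzymes, Idi1 and Dhcr7 followed only weakly, at 0.26 and 0.42. Pmvk, phosphomevalonate kinase, ran against the other enzymes at -0.76. These correlations of single genes include saline replicate 2 and were not computed without it.

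Promoters are shown for the 4 enzymes that followed the others most closely and for Pmvk, which ran against them. The choice was made after these values were seen. The sequences are RefSeq promoters of GRCm38.p6, from 250 bases before to 50 after the start, written 5′ to 3′ on the strand of the gene. Capitals mark the CCAAT box (CCAAT, or ATTGG on the other strand), which the factor NF-Y binds next to SREBP in many sterol genes, and the sterol regulatory element (TCACNCCAC, or GTGGNGTGA on the other strand). No element overlapped a CCAAT box in these windows.
Hmgcs1, chr13:119690101-119690400, plus strand: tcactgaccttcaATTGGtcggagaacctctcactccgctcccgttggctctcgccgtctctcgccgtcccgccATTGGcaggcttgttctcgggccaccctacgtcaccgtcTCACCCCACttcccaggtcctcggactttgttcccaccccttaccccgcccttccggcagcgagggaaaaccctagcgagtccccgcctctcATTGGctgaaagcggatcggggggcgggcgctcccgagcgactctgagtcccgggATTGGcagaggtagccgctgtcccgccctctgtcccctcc
Lss, chr10:76531355-76531654, plus strand: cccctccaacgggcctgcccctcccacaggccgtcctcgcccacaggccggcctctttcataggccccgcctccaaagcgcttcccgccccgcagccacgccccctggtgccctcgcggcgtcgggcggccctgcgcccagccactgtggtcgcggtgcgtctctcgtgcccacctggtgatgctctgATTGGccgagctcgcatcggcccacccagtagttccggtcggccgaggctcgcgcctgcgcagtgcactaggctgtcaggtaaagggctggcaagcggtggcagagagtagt
Msmo1, chr8:64733529-64733828, minus strand: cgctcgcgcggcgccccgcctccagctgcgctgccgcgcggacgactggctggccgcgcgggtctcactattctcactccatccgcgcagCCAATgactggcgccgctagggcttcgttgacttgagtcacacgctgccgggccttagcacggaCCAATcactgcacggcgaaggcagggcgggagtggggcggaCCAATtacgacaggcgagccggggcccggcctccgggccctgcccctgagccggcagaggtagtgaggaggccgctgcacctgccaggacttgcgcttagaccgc
Tm7sf2, chr19:6067801-6068100, minus strand: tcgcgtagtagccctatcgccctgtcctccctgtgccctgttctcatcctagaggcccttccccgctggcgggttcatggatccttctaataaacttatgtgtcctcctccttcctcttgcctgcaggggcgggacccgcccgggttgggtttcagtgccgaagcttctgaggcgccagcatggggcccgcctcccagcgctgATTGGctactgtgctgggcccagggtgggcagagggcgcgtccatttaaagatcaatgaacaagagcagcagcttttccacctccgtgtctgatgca
Pmvk, chr3:89454291-89454590, plus strand: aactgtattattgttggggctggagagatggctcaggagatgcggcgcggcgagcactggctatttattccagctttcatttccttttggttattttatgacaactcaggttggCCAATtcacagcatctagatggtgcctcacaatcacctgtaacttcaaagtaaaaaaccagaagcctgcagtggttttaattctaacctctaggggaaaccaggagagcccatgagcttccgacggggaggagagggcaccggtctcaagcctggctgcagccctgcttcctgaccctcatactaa

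In the window of Hmgcs1 the sterol regulatory element begins 137 bases before the start, between CCAAT boxes that begin 237, 176 and 45 bases before it. A further CCAAT box of Hmgcs1 lies after the start. Msmo1 has CCAAT boxes 160, 96 and 55 bases before the start, Lss has 1 at 62 and Tm7sf2 has 1 at 47. The window of Pmvk, the upstream of its 2 listed starts, has 1 at 136, and the window of its other start has none. Which start was used in these libraries was not determined, so a promoter of Pmvk may lie outside both windows. The table held 24 of the 30 members. A CCAAT box was found in 20 of these 24, and in 14 of the 15 sterol enzymes held, beside 42.4% of the 12479 tested genes in the table and 37.4% of all 32851 promoters. The exact sterol regulatory element was found in Hmgcs1 alone of the 24, beside 1.4% of tested genes and 1.24% of all promoters. The GC box (GGGCGG, or CCGCCC on the other strand), which Sp1 binds, was found in 20 of the 24, beside 65.2% of tested genes and 35.7% of all promoters. A match is a run of letters and not evidence of binding, and NF-Y or SREBP occupancy was not measured.

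Sterol synthesis in brain is shared between oligodendrocytes, astrocytes and neurons, so marker genes of these cells were read in the same libraries. In bulk tissue, fewer cells of a type and less RNA per cell cannot be told apart. The summed level of 10 mature oligodendrocyte markers, none at 0 in any library, was 7580, 5521 and 7028 CPM in saline replicates 1, 2 and 3. It was 7521, 5573 and 7181 CPM in methylphenidate replicates 1, 2 and 3. Both second replicates were low in these markers. The centred median of the sterol enzymes was -0.23 in saline replicate 2 and 0.13 in methylphenidate replicate 2. The sum of 10 astrocyte markers was also low in both, at 4979 CPM in saline and 5023 CPM in methylphenidate replicate 2. It was 5406 to 5836 CPM in the other 4 libraries. Slc1a2 made up most of that sum, with 3052 CPM in saline and 3105 CPM in methylphenidate replicate 2. Among the saline libraries, all of these markers except Aldoc, Slc7a10 and Sox9 were lowest in replicate 2. With the oligodendrocyte sum as a covariate in the edgeR fit, the median log2 fold change of the members was 0.12, 26 were above 0 and none was called. That sum was similar in both lineages, so this covariate could move the lineage differences only little. The part of these cells in the low enzyme levels of saline replicate 2 was not tested. Choroid plexus markers were highest in saline replicate 2, with a sum of 654.5 CPM, against 44.2 and 418.7 CPM in saline replicates 1 and 3. Their sum was 500.5, 200.7 and 24.3 CPM in methylphenidate replicates 1, 2 and 3, and their part in the enzyme levels was not tested.

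**Figure D3:**
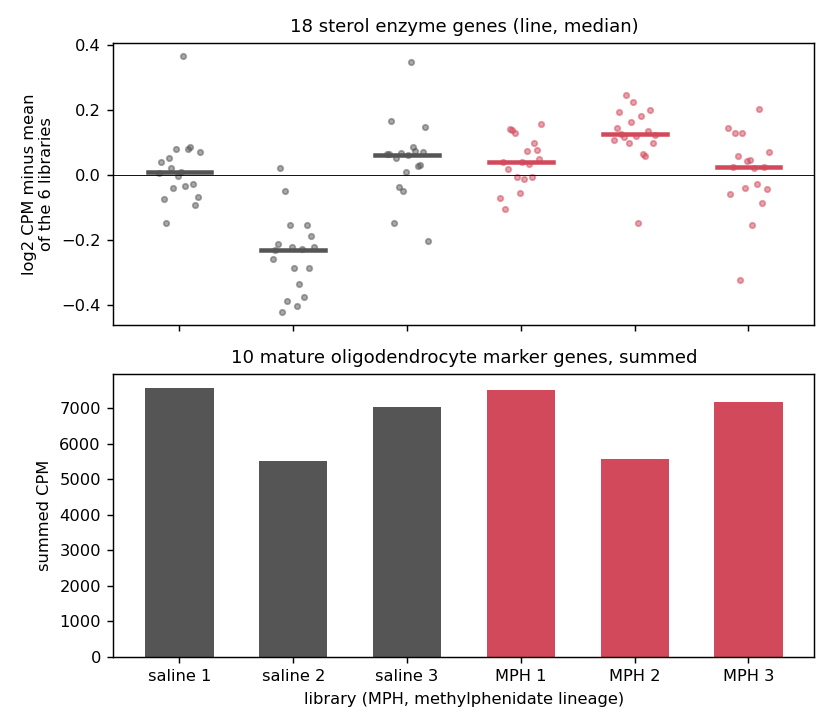
Upper panel, log2 CPM of the 18 sterol enzyme genes minus each gene's mean over the 6 libraries (points, genes; lines, median). Lower panel, summed CPM of 10 mature oligodendrocyte markers in the same libraries. The markers are lowest in Saline 2 and MPH 2, at 5521 and 5573 CPM, and the enzyme medians in these libraries are -0.23 and 0.13.

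All 7 members of the mevalonate segment had log2 fold changes above 0, with a median of 0.12, and none passed the threshold. Hmgcs1 lay at 280.3, 232.1 and 284.9 CPM in saline replicates 1 to 3 and at 279.9, 301.0 and 261.6 CPM in methylphenidate replicates 1 to 3. Saline replicate 2 was the lowest library and the groups overlapped (log2 fold change 0.08, SE 0.09, edgeR adjusted p = 0.887). Without saline replicate 2 its log2 fold change was -0.01. Fdps, which builds farnesyl diphosphate, the branch point to sterols and prenylated proteins, had 38.7, 30.4 and 41.7 CPM in the saline and 43.5, 42.6 and 43.5 CPM in the methylphenidate lineage. Its groups did not overlap, the nearest libraries were less than 1 CPM apart, and the saline libraries spread more widely (log2 fold change 0.23, SE 0.11, edgeR adjusted p = 0.706). Pmvk, with 27.4, 30.7 and 27.3 CPM in the saline and 30.7, 33.1 and 33.2 CPM in the methylphenidate lineage, had the smallest p of the segment (log2 fold change 0.18, SE 0.09, edgeR adjusted p = 0.696). Unlike the other 6, it was higher in saline replicate 2 than in both other saline libraries.

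The other 4 members of the segment had log2 fold changes of 0.12 for Acat2, the cytosolic thiolase that opens the pathway, 0.08 for mevalonate kinase Mvk, 0.20 for the decarboxylase Mvd and 0.06 for the isomerase Idi1. Mvd was the enzyme furthest below in saline replicate 2 after Cyp51, at 13.1 CPM against 18.2 CPM in both other saline libraries. Idi1 was lowest in methylphenidate replicate 3, at 34.3 CPM against 41.5 to 51.0 CPM in the other 5 libraries. Acat3, a close copy of Acat2 whose reads may be shared with it, had 11.6 ± 0.6 CPM in the saline and 15.1 ± 1.3 CPM in the methylphenidate lineage (SD, n = 3; log2 fold change 0.38, SE 0.12, edgeR adjusted p = 0.526), and the groups did not overlap. The processed copy Idi1-ps1 lay at 1.94 to 3.10 CPM, and Idi1-ps2 and Idi1-ps3 had 1 count each in all 6 libraries together.

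The squalene segment holds Fdft1, which joins farnesyl units into squalene, Sqle, the squalene epoxidase and a rate-controlling step, and Lss. All 3 had log2 fold changes above 0, of 0.08, 0.14 and 0.13. Sqle had 55.9, 48.0 and 56.3 CPM in the saline and 53.9, 65.4 and 57.8 CPM in the methylphenidate lineage. Saline replicate 2 was lowest, methylphenidate replicate 2 highest, and the other 4 libraries lay within 4 CPM of each other (SE 0.10, edgeR adjusted p = 0.793). Fdft1 was also highest in methylphenidate replicate 2 (81.3 CPM) and lowest in saline replicate 2 (65.3 CPM).

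Of the 8 enzymes after lanosterol, 7 had log2 fold changes above 0 and 1 below, with a median of 0.13, and all 8 were below the other saline libraries in saline replicate 2. Dhcr7, the 7-dehydrocholesterol reductase that completes cholesterol, had 37.0, 30.2 and 30.6 CPM in the saline and 39.3, 38.4 and 37.1 CPM in the methylphenidate lineage. The groups did not overlap, but saline replicate 1 and methylphenidate replicate 3 were less than 1 CPM apart (log2 fold change 0.23, SE 0.10, unadjusted p = 0.0423 and edgeR adjusted p = 0.644). The remaining members above 0 ran from 0.04 for Msmo1, through Sc5d (0.07), Hsd17b7 (0.10), Nsdhl (0.16) and Tm7sf2 (0.18), to 0.20 for the sterol isomerase Ebp. Msmo1 and Sc5d were at -0.05 and -0.01 without saline replicate 2.

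Cyp51, the lanosterol demethylase, was the enzyme whose lineages differed in the opposite direction. It had 81.0, 47.4 and 79.9 CPM in the saline and 62.2, 56.6 and 56.3 CPM in the methylphenidate lineage. Saline replicates 1 and 3 stood above all other libraries and saline replicate 2 below them, so that the groups overlapped (log2 fold change -0.25, SE 0.17, edgeR adjusted p = 0.798). Without saline replicate 2 the log2 fold change was -0.46 (edgeR adjusted p = 0.209), the smallest adjusted p of any member under the alternatives. Akap9, which overlaps Cyp51 on the opposite strand in the GENCODE M21 annotation, lay between 70.2 and 83.8 CPM and was lowest in saline replicate 1 (log2 fold change 0.10). Whether the counting used strand is not known here, and without it the reads of both genes would mix; Ctsb with Fdft1, Rai1 with Srebf1 and, on the same strand, Vps51 with Tm7sf2 are the other well-counted pairs.

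The SREBP regulators held 3 of the 4 smallest p-values among the members. Srebf2 had 218.2, 201.6 and 209.7 CPM in the saline and 222.4, 236.7 and 249.6 CPM in the methylphenidate lineage. Every methylphenidate library was above every saline library (log2 fold change 0.17, SE 0.07, unadjusted p = 0.0273 and edgeR adjusted p = 0.606). Srebf1 had 35.5, 40.1 and 39.4 CPM against 45.7, 41.0 and 53.2 CPM, with methylphenidate replicate 2 within 1 CPM of the highest saline library (log2 fold change 0.28, SE 0.11, unadjusted p = 0.0259 and edgeR adjusted p = 0.606). Without methylphenidate replicate 3 the log2 fold change of Srebf1 was 0.18 (edgeR adjusted p = 0.942). Insig1 had 65.4, 61.1 and 68.2 CPM against 74.3, 77.7 and 68.7 CPM, again with no overlap (log2 fold change 0.18, SE 0.08, unadjusted p = 0.0397 and edgeR adjusted p = 0.637).

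The remaining regulators showed no such separation. For Insig2, the paralogue of Insig1, the log2 fold change was -0.09 (95% interval -0.29 to 0.10; edgeR adjusted p = 0.868). For Scap it was 0.02 (95% interval -0.16 to 0.20; edgeR adjusted p = 0.973). Each regulator was also centred on its mean over the 6 libraries. The median of the 5 was -0.06, -0.07 and -0.04 in the saline and 0.10, 0.09 and 0.09 in the methylphenidate lineage. The gene at the median was Scap in saline replicates 1 and 3 and in methylphenidate replicates 2 and 3. It was Srebf1 in saline replicate 2 and Insig2 in methylphenidate replicate 1. The median thus passed between genes and does not show that the set shifted. Against the other saline libraries the regulators lay at a median of -0.08 in saline replicate 2, and 3 of 5 were below, Srebf2 and Insig1 among them. This was a smaller drop than the -0.28 of the enzymes, and the difference between the sets was not tested. Stard4, which carries cholesterol through the cytosol, had 27.1, 32.9 and 32.1 CPM in the saline and 33.1, 34.6 and 25.5 CPM in the methylphenidate lineage. It was not low in saline replicate 2 and did not separate the groups (log2 fold change 0.02, SE 0.13, edgeR adjusted p = 0.985).

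Of the 6 fatty acid members, 4 had log2 fold changes above 0 and 2 below, with a median of 0.13. Acly, which makes cytosolic acetyl-CoA from citrate, had 156.8, 150.1 and 148.2 CPM in the saline and 161.0, 157.1 and 177.8 CPM in the methylphenidate lineage. The groups did not overlap, though saline replicate 1 and methylphenidate replicate 2 differed by less than 1 CPM (log2 fold change 0.12, SE 0.07, edgeR adjusted p = 0.738). Fasn, the fatty acid synthase, had 288.3, 242.5 and 268.3 CPM against 269.8, 283.9 and 328.1 CPM, and the groups overlapped (log2 fold change 0.14, SE 0.09, edgeR adjusted p = 0.773). Elovl6 had 82.0, 64.3 and 76.8 CPM against 63.2, 71.4 and 65.5 CPM. It was highest in saline replicate 1 and lowest in methylphenidate replicate 1 (log2 fold change -0.16, SE 0.10, edgeR adjusted p = 0.769).

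Acaca, the acetyl-CoA carboxylase that commits carbon to fatty acids, had the widest spread of the 30. It stood at 92.4, 80.2 and 66.1 CPM in the saline lineage and at 38.5, 87.9 and 89.6 CPM in the methylphenidate lineage. Methylphenidate replicate 1 alone was low, and the other 2 libraries of its group lay among the saline values. The log2 fold change was -0.14 (SE 0.27, edgeR adjusted p = 0.940) with that library and 0.16 (edgeR adjusted p = 0.860) without it. Of the other fatty acid members, Elovl6 was also lowest in methylphenidate replicate 1, at 63.2 CPM, close to its 64.3 CPM in saline replicate 2. Fasn was the lowest of its group there, at 269.8 CPM, but lay among its saline values. Acly, Scd1 and Scd2 were not low in methylphenidate replicate 1, at 161.0, 297.0 and 1550 CPM.

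Scd2 had 1514, 1271 and 1420 CPM in the saline and 1550, 1462 and 1643 CPM in the methylphenidate lineage. Saline replicate 2 was lowest and the groups overlapped (log2 fold change 0.15, SE 0.08, edgeR adjusted p = 0.738). Scd1, a second desaturase gene, had 225.5, 191.1 and 256.4 CPM against 297.0, 200.5 and 237.2 CPM (log2 fold change 0.13, SE 0.14, edgeR adjusted p = 0.887). Both second replicates were the low ones for Scd1, which was at -0.04 without methylphenidate replicate 1.

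The minor paralogues Scd3 and Scd4 showed a pattern that ran across the lineages. Scd4 had 4, 0 and 144 counts in saline replicates 1 to 3 and 185, 8 and 188 counts in methylphenidate replicates 1 to 3. Saline replicate 3 and methylphenidate replicates 1 and 3 were thus high, and the other 3 libraries were at or near 0. A count of 0 in saline replicate 2 allows up to 0.118 CPM, for counting error only. Scd3 was high in the same 3 libraries, at 13.2, 12.7 and 11.3 CPM, against 7.51, 7.12 and 4.99 CPM in the others. The log2 fold changes between lineages were 1.37 (SE 1.31, edgeR adjusted p = 0.869) for Scd4 and 0.05 (SE 0.34, edgeR adjusted p = 0.984) for Scd3. The genes are close copies, so reads may be shared among them, and the part of shared reads was not tested.

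**Figure D4:**
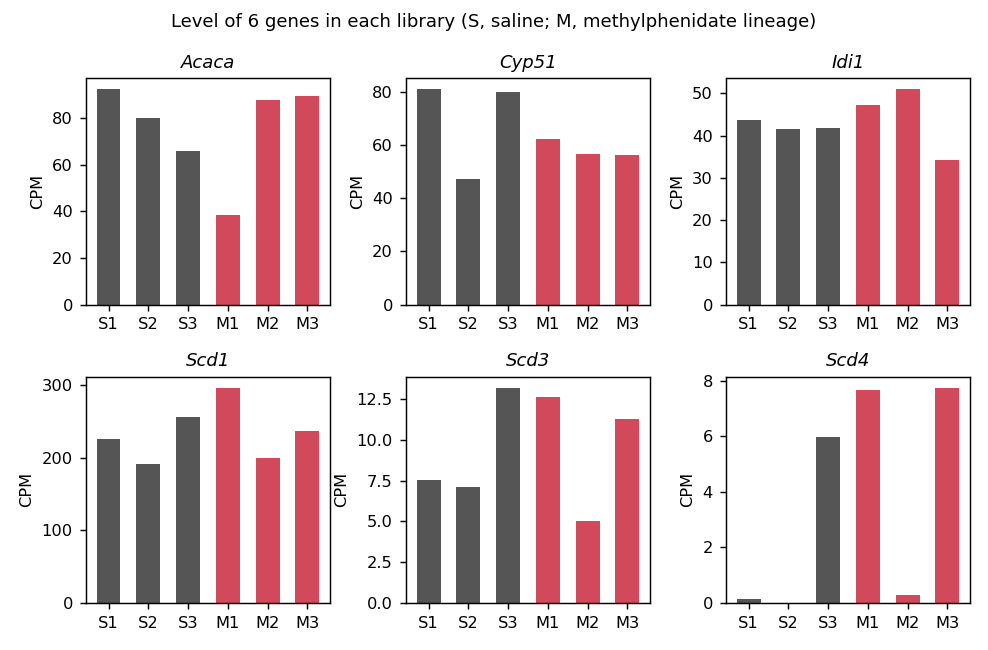
CPM in each library (bars from 0; S, saline and M, methylphenidate lineage, with replicate number) of 3 members, Acaca, Cyp51 and Idi1, and of the desaturase genes Scd1, Scd3 and Scd4. Acaca is low in M1 alone, at 38.5 CPM, and Scd4 is high in S3, M1 and M3.

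Genes next to these in lipid metabolism were read from lists outside the 30. Of 66 genes tested in 5 such lists none passed the threshold, with 39 above and 27 below 0 and a median log2 fold change of 0.02. By edgeR 3 of them had an unadjusted p under 0.05, all higher, and all in the list of other fatty acid synthesis genes; 3 of 66 is near the 4.2% of all genes that were higher at that level. Fads2, the delta-6 desaturase of polyunsaturated fatty acids, had 150.4, 130.1 and 149.6 CPM in the saline and 175.7, 169.8 and 204.0 CPM in the methylphenidate lineage. The groups did not overlap (log2 fold change 0.35, SE 0.09, edgeR adjusted p = 0.309; DESeq2 adjusted p = 0.0260). DESeq2 thus called Fads2, in a fit that called 0.756% of genes. Slc25a1, the mitochondrial citrate carrier that feeds Acly, had 26.7 ± 3.1 CPM in the saline and 33.6 ± 1.2 CPM in the methylphenidate lineage (SD, n = 3) and did not pass the threshold (log2 fold change 0.34, SE 0.10, edgeR adjusted p = 0.492).

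Sterol export and turnover genes, 11 tested, had 7 above and 4 below 0. Cyp7b1, an oxysterol hydroxylase, and the exporter Abca1 had the smallest p, with log2 fold changes of 0.38 (SE 0.17) and 0.22 (SE 0.10) and edgeR adjusted p of 0.672 and 0.675. Uptake and trafficking genes, 13 tested, had 7 above and 6 below, led by Gramd1b, a sterol transfer protein of membrane contacts, at -0.17 (SE 0.08), and the lipoprotein receptor Lrp8 at 0.12 (SE 0.06). Of 9 genes of SREBP processing, 7 were above 0, and Spring1 and the protease Mbtps1 had 0.14 (SE 0.09) and 0.10 (SE 0.07). The 11 genes of other isoprenoid and sterol synthesis had 4 above and 7 below, with Coq2 and Pdss2, both of ubiquinone synthesis, at -0.28 (SE 0.18) and -0.19 (SE 0.13). In saline replicate 2 the 66 genes lay at a median of 0.00 on the log2 scale against the other saline libraries, with 32 below, and the lists differed. Other fatty acid synthesis genes lay at -0.07, with 14 of 22 below, and SREBP processing genes at 0.09, with 1 of 9 below. For Fads2, saline replicate 2 was the lowest of the 6 libraries, at 130.1 CPM, though other genes of its list fell further there.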

How the data were processed

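Per the labels' protocols, directional libraries were made from poly(A) RNA of cortex. Tools listed in the submitters' processing notes, without roles, are HISAT2 2.2.1, StringTie 2.2.1, bcl2fastq 2.19 and fastp 0.23.4, with the build GRCm39. No annotation release or strand setting is given there. The authors deposited raw counts per gene as whole numbers. The 985 rows with a gene identifier but no symbol held 0.131 to 0.175% of each library's counts and were kept in the fit.

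The members and gene lists were chosen with earlier results of these data known. The test was edgeR 4.0.16 in R 4.3.3 (filterByExpr, TMM scaling, quasi-likelihood test, group as the only term, two-sided, Benjamini-Hochberg over all genes, threshold 0.05). Each SE was derived from the log2 fold change and its F statistic, and log2 CPM used a prior count of 2. Members with values per library were those of smallest p or largest change in each role, plus 10 landmark genes; related lists gave the 2 genes of smallest p each, and near-copies were taken by symbol. Alternatives were other scalings, filters, DESeq2 1.42.0, limma 3.58.1 (voom), a replicate block, an oligodendrocyte covariate and leaving out each library. Transcript lengths and overlaps came from GENCODE M21 (GRCm38). In data simulated for this comparison (17960 genes), the test called 12% of genes changed 1.25-fold, 40% of those changed 1.5-fold and 68% of those changed 2-fold. The changed genes, 50 per fold, were drawn only from genes with a mean count above 50. Of the 122 calls, 12 were false. Chi-square over degrees of freedom between libraries of a group was 13.0 to 19.9, where 1 would be sampling noise, so none was a duplicate.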

Additional observations from a re-analysis of the deposited data

How the results depend on the processing

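No member was called by edgeR, DESeq2 or limma-voom, under any scaling, filter or covariate, or without any one library. The smallest adjusted p over the members ran from 0.209, without saline replicate 2, to 0.916, without methylphenidate replicate 3. With all 6 libraries the count of members above 0 was 26 under each scaling, filter and tool, and the median stayed between 0.12 and 0.14. Leaving out a library gave counts of 22 to 26 and medians of 0.05 to 0.16, the lowest without saline replicate 2, where 13 of 18 sterol enzymes were above 0 with a median of 0.04. Without methylphenidate replicate 2 the enzyme median was 0.08. With the replicate number as a replicate block the median was 0.12, 26 members were above 0, and no call of a member changed. In all, 2 genes passed instead of 5. Same-numbered libraries correlated across genes at -0.04, 0.09 and -0.02, and differently numbered ones at -0.11 to 0.13. These values cannot show whether same-numbered samples shared a litter or a batch, which the labels do not give.

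Fold changes near 0 changed sign when a library was left out, with ranges of -0.067 to 0.14 for Stard4, -0.0091 to 0.13 for Hmgcs1, -0.037 to 0.25 for Scd1, -0.0080 to 0.19 for Mvk, -0.053 to 0.21 for Idi1, -0.055 to 0.092 for Msmo1, -0.0088 to 0.16 for Sc5d, -0.019 to 0.094 for Scap, -0.33 to 0.16 for Acaca, -0.19 to 0.39 for Scd3 and -0.26 to 0.086 for Idi1-ps1. Scd3 was also at -0.024 by limma-voom. DESeq2 called 1 gene, Fads2, in the list of other fatty acid synthesis genes (adjusted p = 0.0260; log2 fold change 0.35), and the cause was not tested. Over all genes, 5 passed the threshold by edgeR, 149 by DESeq2, 10 with total counts as the scaling, 3 without the filter, 3 with the oligodendrocyte covariate and 2 to 26 when a library was left out. The 95% intervals of 26 of the 30 members included 0.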
